A study of Mus musculus with 9 samples.

Results

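Genes whose symbol is Kcn followed by letters and a number were taken from a table of read counts of the mouse left ventricle, which gave 98 genes of 55367 symbols. Of these, 93 encode subunits of potassium channels and 5 are antisense transcripts named after a channel gene. The question here is which of them are expressed in the ventricle and how their levels differ between 3 groups of 3 bulk RNA libraries each. The MI+BPD hearts had a myocardial infarction (MI) and were given BPD, a treatment described as aimed at the proliferative phase, the MI hearts had an infarction without it, and the Sham hearts had sham surgery. The tissue is described as infarct core with the region around it, which Sham hearts lack, and was taken at day 14 after MI, with no day named for Sham. Strain, sex, age, dose, the meaning of BPD and whether each library is 1 animal are not given in the labels, so p-values measure the spread between these libraries, which may be in part technical. No genetic change is named for any group.

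Potassium channels let potassium leave the cell and so set the resting potential and end the action potential of heart muscle. Pore-forming alpha subunits fall into voltage-gated, inwardly rectifying, tandem-pore and calcium- or sodium-activated families. Accessory subunits carry no pore and alter the traffic and gating of the alpha subunits. In mouse ventricle the fast repolarisation rests mainly on transient outward and slowly inactivating voltage-gated currents, and the resting potential on inward rectifiers. Other family members work in smooth muscle, endothelium, fibroblasts, nerve and immune cells.

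Total counts were between 14451410 and 19269072 per library. All 16 cardiomyocyte marker genes were detected and were lower in MI+BPD and in MI than in Sham. Their summed level was 54279, 38416 and 36936 CPM in MI+BPD, 23317, 24852 and 40011 CPM in MI and 93636, 94479.8 and 97817 CPM in Sham, in CPM, which are counts per 1000000 counts of the library after scaling by trimmed-mean (TMM) factors. MI 3 and MI+BPD 1 were thus the highest libraries of their groups. Summed fibroblast markers were 20460.4, 20092 and 21692 CPM in MI+BPD, 20913, 21997 and 14867 CPM in MI and 1185, 1109.6 and 1275 CPM in Sham, and all 8 were higher in both infarct groups. Summed macrophage markers ran from 740.3 to 1275 CPM in the 6 infarct libraries and from 365 to 439 CPM in Sham. In bulk tissue, fewer cells of a type and less RNA per cell cannot be told apart. Atrial markers summed to 0.732 to 3.80 CPM in every library.

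Of the 98 genes, 9 had no count in any library: Kcna10, Kcnf1, Kcng3, Kcnj1, Kcnk9, Kcnk15, Kcnk16, Kcnk18 and Kcnmb3. A count of 0 allows 3 counts over all 9 libraries, or 0.0184 CPM, by counting error alone. The other 89 had at least 1 count, and 54 had a count in every library. The filter on low counts left 52 genes for testing, 51 channel subunit genes and the antisense transcript Kcnq1ot1. Of the 46 genes not tested none reached a mean of 1 CPM in any group, and their highest count in any library was 23. Taking a mean of 1 CPM as expressed, 44 genes were expressed in MI+BPD, 42 in MI and 39 in Sham, with 34 expressed in all 3 groups and 47 in at least 1. The numbers were 50, 52 and 46 at a limit of 0.5 CPM, and 37, 36 and 34 at 2 CPM.

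The set of expressed genes itself differed between infarcted and Sham ventricle. Kcnd1, Kcne3, Kcnj10, Kcnj14, Kcnk13, Kcnma1, Kcnn4 and Kcnq3 reached 1 CPM in MI and not in Sham, and all of these but Kcne3 and Kcnq3 also did so in MI+BPD. Kcnt1, a sodium-activated channel, reached it in Sham alone. Genes that reached it in MI+BPD and in Sham and not in MI included Kcna1, Kcna7 and Kcnv2. These memberships turn on small differences for genes near the limit, such as Kcna7 with 1.44, 0.873 and 1.32 CPM in MI+BPD, 0.594, 0.570 and 1.24 CPM in MI and 2.84, 3.15 and 2.36 CPM in Sham.

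Levels of different genes are compared per kilobase (kb) of exon. In Sham the tandem-pore background channel Kcnk3 stood first at 51.3 CPM per kb, followed by Kcnip2, the accessory subunit of the fast transient outward current, at 49.6. Next came the inward rectifiers Kcnj11 (36.8), Kcnj5 (23.6) and Kcnj3 (22.6), and then the silent subunit Kcng2 (20.9). The Sham libraries of Kcnk3 and Kcnip2 overlapped on this scale, and so did those of Kcnj5 and Kcnj3. The order was different in MI, where the inward rectifier Kcnj15 (16.3 CPM per kb) and Kcnk3 (16.3) were level at the head and the accessory subunit Kcne4 came next (13.2). Kcnj15 had rank 4 in MI+BPD, rank 1 in MI and rank 31 in Sham, while Kcne4 had rank 6 in MI+BPD, rank 3 in MI and rank 21 in Sham. Kcnv2 moved the other way, with rank 32 in MI+BPD, rank 46 in MI and rank 15 in Sham.

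**Figure D1:**
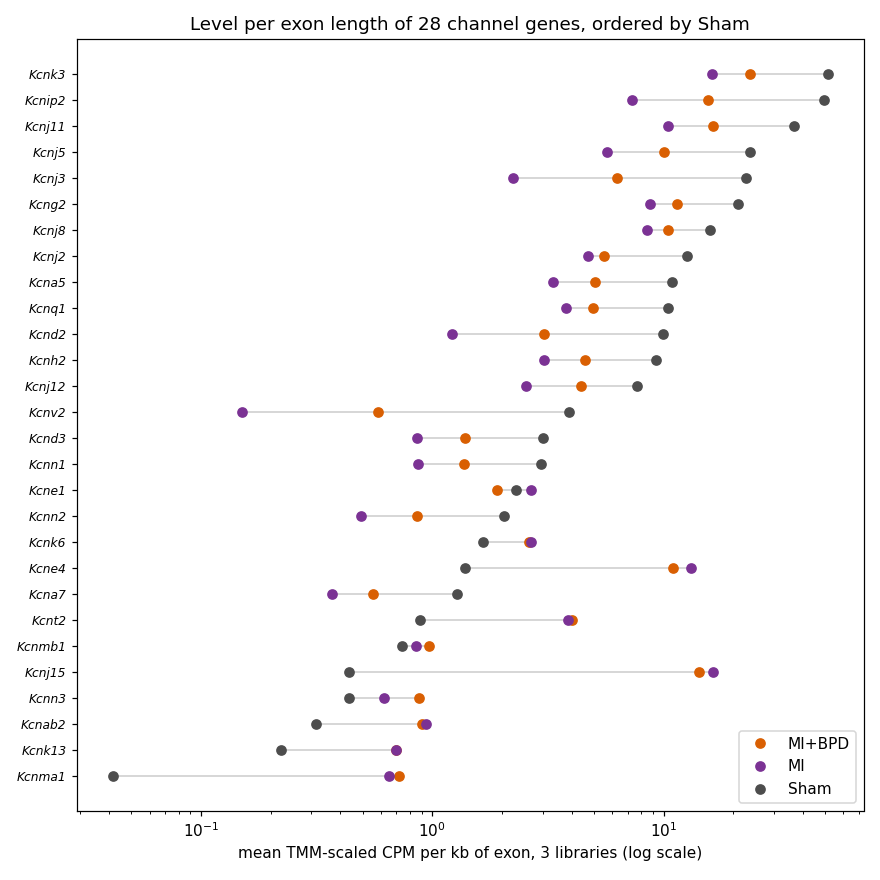
Mean level per exon length (TMM-scaled CPM per kb, log axis, 3 libraries a group) of 28 channel subunit genes with high levels in any group, in the order of Sham. Points are group means for MI+BPD, MI and Sham, and the grey line joins the lowest to the highest: Kcnj15 and Kcne4 lie far to the right of Sham in both infarct groups, and Kcnv2 and Kcnd2 far to the left.

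The sequence just before the transcription start is shown for 4 genes on which these levels turn. Kcnj15 and Kcne4 were much higher in infarcted ventricle, and Kcnip2 and Kcnd2, which together form the fast transient outward channel, much lower. They were chosen after their values were seen. Each run holds the 250 bases before the RefSeq start in build GRCm38.p6, written in the direction of the gene. The windows are chr16:95257308-95257557 on the plus strand for Kcnj15, chr1:78816661-78816910 on the plus strand for Kcne4, chr19:45816064-45816313 on the minus strand for Kcnip2 and chr6:21215096-21215345 on the plus strand for Kcnd2. Capitals mark GGGCGG, the core of the GC box.
Kcnj15: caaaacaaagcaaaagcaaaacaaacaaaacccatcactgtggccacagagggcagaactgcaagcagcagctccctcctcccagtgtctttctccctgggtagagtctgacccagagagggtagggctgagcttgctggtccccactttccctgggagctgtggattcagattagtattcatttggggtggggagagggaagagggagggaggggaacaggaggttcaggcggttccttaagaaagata
Kcne4: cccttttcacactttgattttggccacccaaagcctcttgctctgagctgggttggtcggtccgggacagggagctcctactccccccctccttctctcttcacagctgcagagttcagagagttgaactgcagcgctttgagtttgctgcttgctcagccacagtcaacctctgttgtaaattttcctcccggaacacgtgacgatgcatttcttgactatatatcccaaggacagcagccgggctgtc
Kcnip2: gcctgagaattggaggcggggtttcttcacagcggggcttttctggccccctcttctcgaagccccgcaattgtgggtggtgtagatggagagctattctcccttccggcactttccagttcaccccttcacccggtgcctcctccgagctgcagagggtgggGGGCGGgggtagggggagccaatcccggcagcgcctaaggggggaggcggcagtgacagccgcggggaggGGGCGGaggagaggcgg
Kcnd2: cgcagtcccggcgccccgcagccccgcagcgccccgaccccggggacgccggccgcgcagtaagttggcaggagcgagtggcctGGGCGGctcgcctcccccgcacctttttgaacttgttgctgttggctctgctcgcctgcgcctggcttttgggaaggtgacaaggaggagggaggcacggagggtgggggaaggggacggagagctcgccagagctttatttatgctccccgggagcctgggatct
The windows of Kcnj15 and Kcne4 held 53.2% G and C each, close to the median of 52.4% over all 32851 windows, and those of Kcnip2 and Kcnd2 held 66.8% and 68.8%. GGGCGG lay 87 to 82 and 17 to 12 bases before the start of Kcnip2, and 166 to 161 bases before that of Kcnd2. The windows of Kcnj15 and Kcne4 had no match. These 4 genes do not stand for the sets called, since GGGCGG was in more of the higher than of the lower genes, as given below. The share of G and C was not computed for the other called genes.

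Windows were on hand for 71 of the 98 genes, among them 14 of those called higher and 14 of those called lower in MI against Sham. Motifs were searched on both strands. GGGCGG was in 9 of the 14 higher and 6 of the 14 lower genes, against 35.4% of all genes with a window. TATAAA was in none of either set, against 14.3% of all genes. TGANTCA, a form of the AP-1 element, was in 2 higher and no lower genes (7.82% of all genes), GGAATG, the TEAD element, in 3 and 1 (14.4%), AGATAA, the GATA element, in 1 and 0 (11.4%), and the MEF2 element in none (0.592%). A match describes the letters and not a site in use.

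Compared with Sham, channel genes moved in both directions in the infarcted ventricle. Of the 52 genes tested in MI against Sham, 18 rose, 24 fell and 10 did not pass, by edgeR's quasi-likelihood test with Benjamini-Hochberg adjustment over 15138 genes at an adjusted p under 0.05. That is 80.8% called, where 68.9% of all genes were called. The share that rose was 34.6% (37% of all genes), and the share that fell was 46.2% (31.9% of all genes). The median log2 fold change of the 52 genes was -0.31, against 0.07 for all genes tested. The libraries of MI and Sham did not overlap in 42 of the 52 genes, or 80.8%, against 74.4% of all genes.

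In MI+BPD against Sham, which shares the Sham libraries with the comparison above, 16 of the 52 genes rose, 20 fell and 16 did not pass. This was 69.2% called, against 59.6% of all genes. Those that rose were 30.8% (31.8% of all genes), and those that fell 38.5% (27.8% of all genes). The median log2 fold change was -0.23, against 0.04 over all genes, and 38 genes, or 73.1%, had libraries that did not overlap, against 68.5% of all genes. Scaling by library totals alone moved the median of all genes to 0.57 in MI+BPD against Sham and 0.81 in MI against Sham. It gave 22 higher and 15 lower channel genes in MI+BPD and 25 higher and 21 lower in MI, so directions below are relative to the TMM scale. Without MI+BPD 1, which had the most cardiomyocyte marker RNA of its group, the counts in MI+BPD against Sham were 16 and 22, and without MI 3 those in MI against Sham were 19 and 24.

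**Figure D2:**
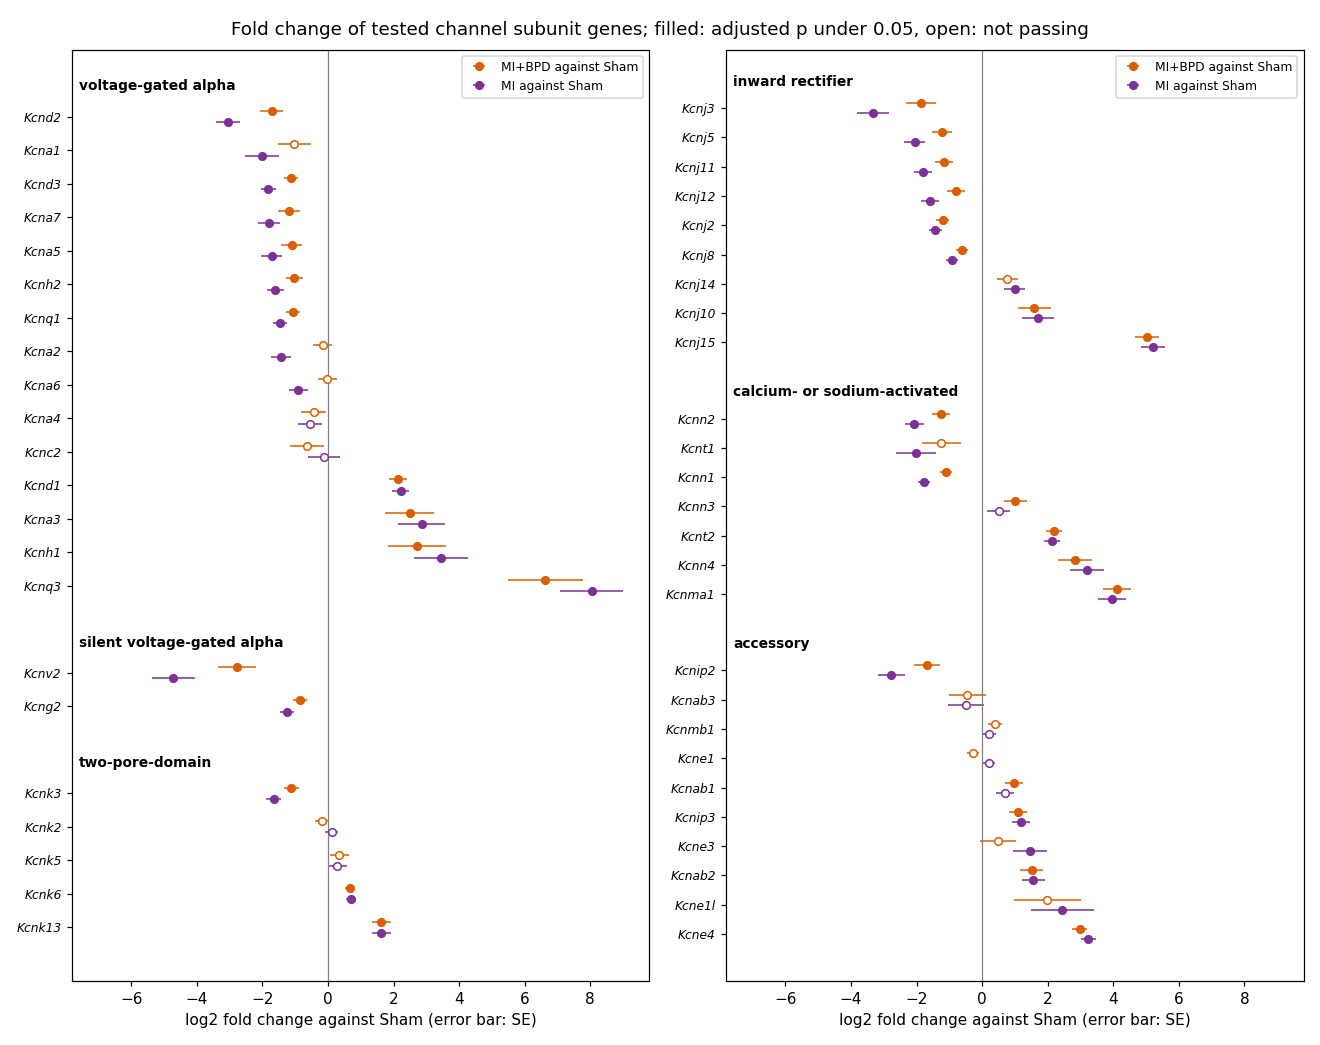
Log2 fold change (horizontal axis, error bar SE) of 48 tested channel subunit genes by family, MI+BPD against Sham in orange and MI against Sham in purple; filled points passed at an adjusted p under 0.05 and open points did not. Values of Kcnq3, Kcnh1 and Kcne1l rest on 0 or 3 Sham counts and are fitted values, not bounds, and the voltage-gated family lies mostly left of 0 while Kcnj15, Kcne4 and Kcnma1 lie far to the right.

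A panel of 20 subunits drawn up for currents of heart muscle mostly fell. In MI+BPD against Sham 16 of the 20 fell, 1 rose and 3 did not pass. In MI against Sham 16 fell, none rose and 4 did not pass. Over all genes tested, 27.8% fell and 31.8% rose in MI+BPD, and 31.9% fell and 37% rose in MI. The median log2 fold change of the panel was -1.11 in MI+BPD and -1.64 in MI. The 4 that did not pass in MI were Kcna4, Kcne1, Kcnk2 and Kcnab1. A panel of 12 subunits drawn up for vessels, fibroblasts and immune cells had 10 rising, none falling and 2 not passing in MI+BPD. In MI it had 9 rising, 1 falling and 2 not passing. The panels do not split cleanly by cell type. The second includes Kcnj15, described mainly in epithelia, and Kcnj10, the inward rectifier of glia, and the first includes Kcnj8, known mainly from vessels. Both panels were written with earlier results of these data known, so their directions are descriptions. The cardiomyocyte markers fell beside the first panel, with a median log2 fold change of -1.07 in MI+BPD and -1.58 in MI, and fibroblast and macrophage markers rose beside the second. Vessel markers did not all rise. Of 8 endothelial markers 5 fell in MI+BPD and 6 in MI, and none rose. Of 8 smooth muscle and pericyte markers 5 rose and 1 fell in MI+BPD, and 5 rose and 2 fell in MI. The part of all these markers in the panel counts was not tested.

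The subunits of the fast transient outward current fell together. Kcnd2, its main pore-forming subunit in mouse ventricle, stood at 20.4, 9.39 and 17.3 CPM in MI+BPD, 5.11, 3.99 and 9.62 CPM in MI and 45.0, 44.8 and 64.5 CPM in Sham. Every infarct library was below every Sham library, and MI+BPD 2 lay within the range of MI. Kcnd2 fell by 1.72 ± 0.34 in MI+BPD and by 3.05 ± 0.37 in MI on the log2 scale (SE, adjusted p = 0.0026 and 0.000119). Kcnip2, without which this current is lost in mouse heart, stood at 75.1, 39.9 and 47.1 CPM in MI+BPD, 12.3, 20.3 and 43.5 CPM in MI and 170.4, 175 and 172 CPM in Sham. The Sham libraries were tightly grouped and the MI libraries were spread, with MI 3 within the range of MI+BPD. Kcnip2 fell by 1.68 ± 0.40 in MI+BPD and by 2.77 ± 0.42 in MI (adjusted p = 0.00577 and 0.00033), with a log2 fold change of -3.41 in MI without MI 3. Kcnd3, the other pore-forming subunit, had 17.3, 10.7 and 11.7 CPM in MI+BPD, 7.76, 6.51 and 10.4 CPM in MI and 26.8, 33.0 and 27.0 CPM in Sham. It fell by 1.13 ± 0.21 and 1.82 ± 0.22 in MI+BPD and MI. The ratio of Kcnd2 to Kcnd3 counts was 1.18, 0.876 and 1.48 in MI+BPD, 0.658, 0.613 and 0.925 in MI and 1.68, 1.36 and 2.39 in Sham, so the libraries of MI and Sham did not overlap in it. Kcna4, the pore of the slow transient outward current, did not pass, with log2 fold changes of -0.44 ± 0.37 and -0.55 ± 0.37 that turned to 0.0734 and 0.17 with library totals alone.

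Several subunits of the delayed rectifier currents were lower by smaller steps. Kcna5, a fast-activating delayed rectifier, averaged 14.5 ± 4.64 CPM in MI+BPD, 9.48 ± 4.54 CPM in MI and 31.1 ± 3.18 CPM in Sham (SD, n = 3). It fell by 1.11 ± 0.32 in MI+BPD and by 1.72 ± 0.33 in MI, and the MI+BPD call ended without MI+BPD 3, with library totals and with no filter on low counts. Kcnq1, the pore of the slow delayed rectifier, fell by 1.07 ± 0.21 and 1.46 ± 0.21, and Kcnh2, the pore of the rapid one, by 1.03 ± 0.26 and 1.62 ± 0.26 in MI+BPD and MI. Kcne1, the accessory partner of Kcnq1, did not pass, at 5.69, 6.83 and 5.89 CPM in MI+BPD, 9.14, 7.29 and 9.39 CPM in MI and 5.58, 8.05 and 8.54 CPM in Sham. Its counts were 0.251, 0.393 and 0.284 of those of Kcnq1 in MI+BPD, 0.704, 0.609 and 0.433 in MI and 0.137, 0.199 and 0.182 in Sham. All infarct libraries were above all Sham libraries in this ratio. The log2 fold change of Kcne1 in MI+BPD against Sham, -0.27 ± 0.18, turned to 0.26 with library totals.

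Silent subunits form no channel alone and modify other voltage-gated subunits. Of 10 such genes 2 were tested, and both fell, where 27.8% of all genes fell in MI+BPD and 31.9% in MI. Kcnv2 had 6.11, 0.975 and 1.83 CPM in MI+BPD, 0.317, 0.692 and 1.29 CPM in MI and 17.4, 25.6 and 16.9 CPM in Sham. It was the lowest of all channel genes relative to Sham, falling by 2.77 ± 0.58 in MI+BPD and by 4.72 ± 0.66 in MI (adjusted p = 0.00303 and 0.000227). MI+BPD 1 stood well above the other infarct libraries, and without it the log2 fold change in MI+BPD was -3.86. Kcng2, by contrast, fell by 0.87 ± 0.21 and 1.26 ± 0.21 in MI+BPD and MI, and its call in MI+BPD ended with library totals.

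The other voltage-gated subunits were at lower levels. Over the whole family of 30 alpha subunits, 18 were tested. Of these, 4 rose, 8 fell and 6 did not pass in MI+BPD, and 4 rose, 11 fell and 3 did not pass in MI. All genes tested gave 31.8% rising and 27.8% falling in MI+BPD, and 37% rising and 31.9% falling in MI. Kcnd1, a transient channel better known from neurons, had 3.05, 2.31 and 3.91 CPM in MI+BPD, 3.64, 3.13 and 3.04 CPM in MI and 0.549, 0.700 and 0.839 CPM in Sham, and it rose by 2.13 ± 0.27 in MI+BPD and 2.21 ± 0.27 in MI. All 6 infarct libraries were above the Sham libraries. Kcnq3, a subunit of the neuronal M-current, had 0.599, 0.667 and 0.762 CPM in MI+BPD, 1.27, 2.85 and 1.33 CPM in MI and 0, 0 and 0 CPM in Sham. With no Sham count, it was at least 8.04-fold higher in MI+BPD and at least 21.7-fold higher in MI, set against 3 counts over the Sham group, and at least 5.07-fold and 13.6-fold without Sham 3. Kcna3, the main voltage-gated channel of T cells, stayed under 1 CPM in every library and rose by 2.49 ± 0.75 and 2.85 ± 0.72. It had 4 Sham counts in all, and its value ran from 1.87 to 3.80 in MI+BPD and from 2.22 to 4.16 in MI when 1 library was left out, with the MI+BPD call ending without Sham 1, Sham 3 or MI+BPD 2. T and B cell markers summed to 5.69, 8.73 and 5.89 CPM in MI+BPD, 52.3, 11.4 and 6.58 CPM in MI and 4.57, 2.27 and 3.28 CPM in Sham, MI 1 being far the highest. Kcna3 had 0.990 CPM in MI 1 and 0.896 CPM in MI 2, from 25 and 22 counts. The part of T and B cells in the Kcna3 values was not tested.

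Among genes outside the panels, chosen after their values were seen, Kcnh1, a voltage-gated channel of neurons, had 3 Sham counts, all in Sham 3. Its ratio to Sham was 6.99 (95% exact binomial interval 2.19 to 35.6) in MI+BPD and 11.9 (3.91 to 59.1) in MI, and the MI+BPD call ended when any 1 of 4 libraries was left out. Fitting only the groups compared also ended the Kcnh1 calls in MI+BPD and MI and the Kcna3 call in MI+BPD. Kcna7 fell by 1.20 ± 0.34 and 1.80 ± 0.34, the MI+BPD call ending without MI+BPD 2 and with library totals. Kcna1 and Kcna6 did not pass in MI+BPD (-1.02 ± 0.49 and -0.03 ± 0.29) and fell in MI by 2.02 ± 0.52 and 0.90 ± 0.30. The Kcna6 call ended without Sham 1, Sham 3, MI 1 or MI 2, with library totals and with no filter, and Gm26673 on the opposite strand overlaps 39.6% of its exon length. Kcnc2 did not pass in either comparison.

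Inward rectifiers changed in both directions. Of 15 such genes 9 were tested. In MI+BPD 2 rose, 6 fell and 1 did not pass, and in MI 3 rose, 6 fell and none did not pass. The shares of all genes were 31.8% rising and 27.8% falling in MI+BPD, and 37% rising and 31.9% falling in MI. Kcnj2 carries most of the resting current of ventricular muscle. It had 38.5, 25.1 and 26.9 CPM in MI+BPD, 19.0, 26.5 and 31.3 CPM in MI and 69.6, 64.0 and 73.5 CPM in Sham, all infarct libraries lying below all Sham libraries. Kcnj2 fell by 1.20 ± 0.20 in MI+BPD and 1.43 ± 0.20 in MI (adjusted p = 0.00113 and 0.000232). Kcnj12, its partner, fell by 0.80 ± 0.27 in MI+BPD, and in MI it fell by 1.60 ± 0.28. The MI+BPD call of Kcnj12 ended in 5 of the 9 fits that left out 1 library, with library totals and with no filter.

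Kcnj3 and Kcnj5 together form the acetylcholine-gated channel, known mainly from atrium and pacemaker tissue. Kcnj3 had 58.5, 15.3 and 24.3 CPM in MI+BPD, 8.35, 8.26 and 18.5 CPM in MI and 112, 121 and 121 CPM in Sham, and Kcnj5 had 66.6, 36.1 and 38.7 CPM in MI+BPD, 20.9, 19.2 and 39.7 CPM in MI and 95.7, 120.4 and 116 CPM in Sham. Infarct libraries were below Sham for both genes, and MI+BPD 1 stood highest among them. Kcnj3 fell by 1.86 ± 0.46 in MI+BPD and 3.34 ± 0.49 in MI, and Kcnj5 by 1.24 ± 0.30 and 2.06 ± 0.31. Without MI+BPD 1 the log2 fold change of Kcnj3 in MI+BPD was -2.61, and with no filter on low counts the call ended. Counts of Kcnj3 per count of Kcnj5 were 0.879, 0.425 and 0.629 in MI+BPD, 0.400, 0.430 and 0.466 in MI and 1.17, 1.01 and 1.04 in Sham, without overlap between infarct and Sham. The atrial markers Myl4, Myl7, Sln and Bmp10 summed to at most 3.80 CPM in any library. Pacemaker markers were not looked at, and the part of atrial or pacemaker tissue in the Kcnj3 and Kcnj5 levels was not tested. A gene on the opposite strand, Gm26794, overlaps 31.1% of the exon length of Kcnj3, and without a stated strand setting its reads cannot be told apart.

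Kcnj11 and Kcnj8 are the pores of channels closed by ATP, Kcnj11 in heart muscle and Kcnj8 mainly in vessels. Kcnj11 had 81.6, 51.3 and 47.9 CPM in MI+BPD, 27.5, 32.6 and 55.2 CPM in MI and 127, 136 and 142 CPM in Sham and fell by 1.17 ± 0.27 in MI+BPD and 1.82 ± 0.27 in MI. Kcnj8 had 33.0, 26.3 and 20.6 CPM in MI+BPD, 21.7, 17.5 and 25.7 CPM in MI and 43.1, 37.9 and 40.9 CPM in Sham, a smaller gap that still left no overlap with Sham. It fell by 0.61 ± 0.18 in MI+BPD and 0.91 ± 0.18 in MI, calls that both ended with library totals, and in MI+BPD also without Sham 1 or MI+BPD 3. Kcnj11 counts were 2.47, 1.95 and 2.33 times those of Kcnj8 in MI+BPD, 1.27, 1.86 and 2.14 times in MI and 2.95, 3.60 and 3.47 times in Sham. Endothelial markers also fell, 5 of 8 in MI+BPD and 6 of 8 in MI, and their part in the Kcnj8 value was not tested.

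Kcnj15, an inward rectifier described mainly in epithelia, showed the greatest rise of any channel gene with Sham counts above the floor. It had 60.1, 98.7 and 109.96 CPM in MI+BPD, 107, 137 and 65.7 CPM in MI and 3.11, 2.27 and 2.90 CPM in Sham. The lowest infarct library was MI+BPD 1, and it was many times above the highest Sham library. Kcnj15 rose by 5.02 ± 0.37 in MI+BPD and 5.22 ± 0.37 in MI (adjusted p = 1.99e-05 and 1.32e-05). Gm49643 on the opposite strand overlaps 5.28% of its exon length. Kcnj10, the inward rectifier of glia, rose by 1.59 ± 0.50 and 1.72 ± 0.49 in MI+BPD and MI at levels under 2 CPM, and its MI+BPD call ended in 4 of the 9 fits that left out 1 library. Kcnj14, outside the panels, did not pass in MI+BPD (0.77 ± 0.33) and rose in MI by 0.99 ± 0.32, a call that ended without Sham 2 or MI 2.

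**Figure D3:**
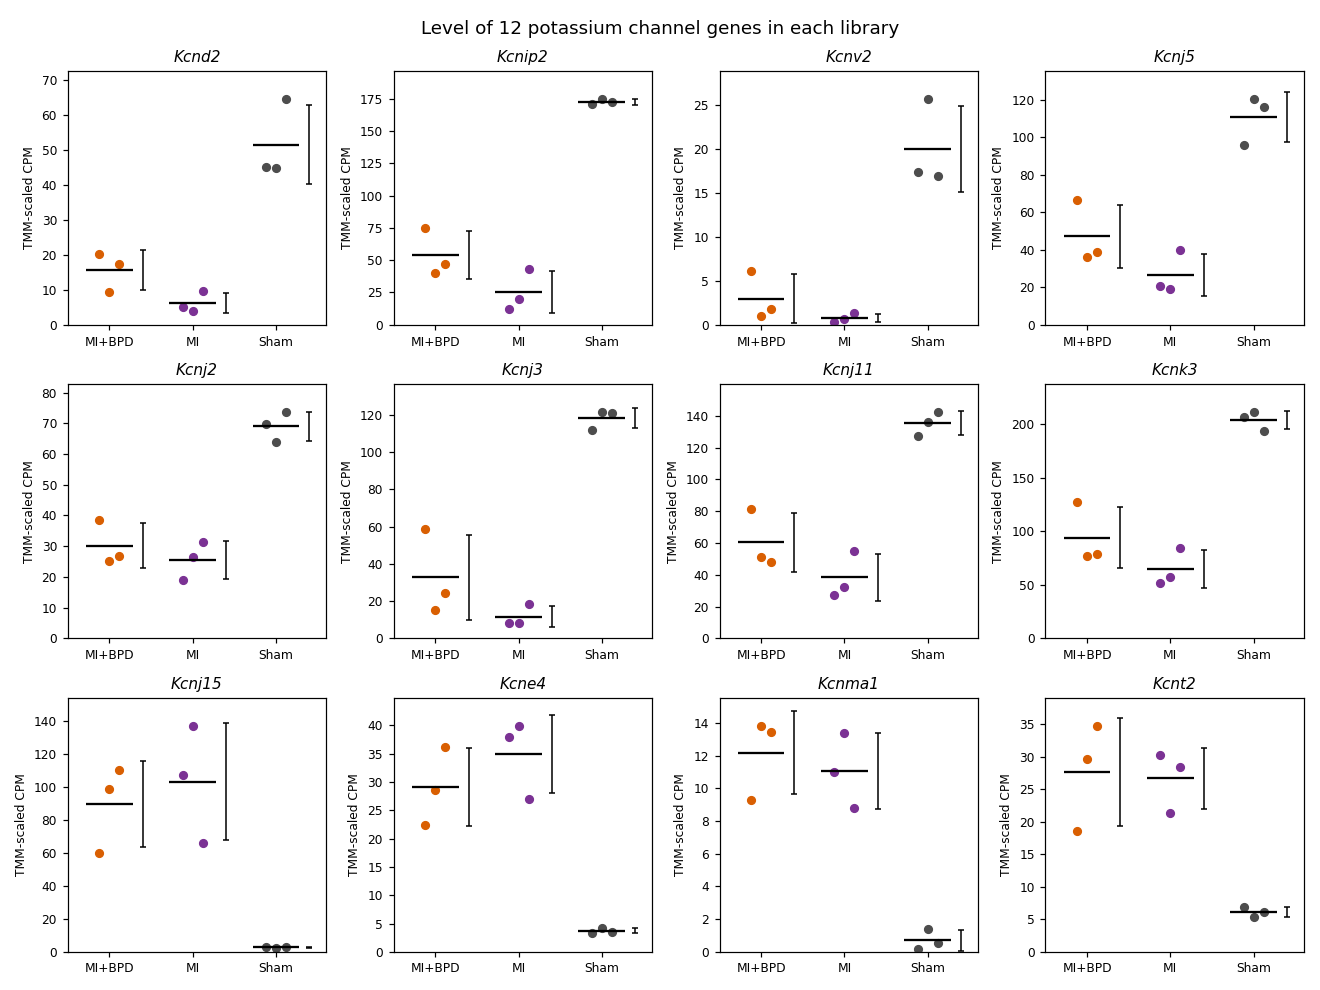
Level (TMM-scaled CPM, vertical axes from 0) of 12 channel genes in the 3 libraries each of MI+BPD, MI and Sham, with group mean (line) and SD (bar). The upper 8 genes lie lower in every infarct library than in any Sham library and the lower 4 (Kcnj15, Kcne4, Kcnma1, Kcnt2) higher.

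Of the 14 tandem-pore genes, which carry background potassium current, 5 were tested. In both MI+BPD and MI against Sham 2 rose, 1 fell and 2 did not pass. So few genes cannot be set apart from the shares of all genes, 31.8% rising and 27.8% falling in MI+BPD and 37% and 31.9% in MI. Kcnk3 had 127, 76.5 and 78.7 CPM in MI+BPD, 51.9, 57.6 and 84.5 CPM in MI and 207, 211 and 194 CPM in Sham. It fell by 1.12 ± 0.23 in MI+BPD and by 1.66 ± 0.23 in MI, with all infarct libraries below Sham. Kcnk2, a stretch-sensitive channel, had 2.46, 3.08 and 2.79 CPM in MI+BPD, 2.81, 3.70 and 3.73 CPM in MI and 3.02, 2.71 and 3.74 CPM in Sham, and its libraries overlapped in every comparison. Its log2 fold changes were -0.19 ± 0.20 in MI+BPD, which turned to 0.35 with library totals, and 0.11 ± 0.19 in MI. Kcnk6, a channel found on macrophages, rose by 0.66 ± 0.15 and 0.69 ± 0.15, and Kcnk13, a channel known from microglia, by 1.63 ± 0.29 and 1.63 ± 0.29 in MI+BPD and MI. Macrophage markers rose by a median of 1.57 in MI+BPD and 1.55 in MI, and their part in these values was not tested.

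Calcium- and sodium-activated channels, of which 7 were tested, went in both directions. In MI+BPD 4 rose, 2 fell and 1 did not pass, and in MI 3 rose, 3 fell and 1 did not pass. With 7 genes these counts cannot be set apart from the shares of all genes. Those were 31.8% rising and 27.8% falling in MI+BPD, and 37% and 31.9% in MI. Kcnma1, the large-conductance channel of smooth muscle, had 9.28, 13.8 and 13.5 CPM in MI+BPD, 11.0, 13.4 and 8.79 CPM in MI and 0.183, 1.40 and 0.534 CPM in Sham. It rose by 4.10 ± 0.43 in MI+BPD and 3.96 ± 0.43 in MI, and by 5.01 and 4.87 without Sham 2, the highest Sham library. Its smooth muscle partner Kcnmb1 did not pass, at 4.49, 4.31 and 3.35 CPM in MI+BPD, 3.17, 4.44 and 3.13 CPM in MI and 3.66, 3.06 and 2.59 CPM in Sham, with all groups overlapping. Summed smooth muscle and pericyte markers were 1415, 1411 and 1305 CPM in MI+BPD, 1231, 1305 and 1268 CPM in MI and 1344, 1239.6 and 1194 CPM in Sham, and both infarct groups overlapped Sham in the sum. Of the 8 single markers, 5 rose and 1 fell in MI+BPD, with a median log2 fold change of 0.57, and 5 rose and 2 fell in MI, with a median of 0.86. Their part in the Kcnma1 value was not tested.

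Kcnn4, a calcium-activated channel of immune cells and activated fibroblasts, had 2.52, 2.46 and 2.89 CPM in MI+BPD, 4.04, 3.79 and 2.21 CPM in MI and 0.183, 0.0875 and 0.762 CPM in Sham. It rose by 2.84 ± 0.52 in MI+BPD and 3.19 ± 0.51 in MI, and by 4.22 and 4.57 without Sham 3. Kcnn2 and Kcnn1, small-conductance channels of excitable cells, fell by 1.25 ± 0.28 and 1.11 ± 0.19 in MI+BPD and by 2.07 ± 0.29 and 1.78 ± 0.19 in MI. Kcnn2 stood at 8.86, 5.08 and 5.38 CPM in MI+BPD, 3.13, 2.56 and 5.29 CPM in MI and 15.6, 14.7 and 15.6 CPM in Sham, again without overlap between infarct and Sham. Kcnn3, the form of endothelium, rose in MI+BPD by 1.01 ± 0.35 and did not pass in MI (0.51 ± 0.35), with 7.43, 10.6 and 9.45 CPM in MI+BPD, 4.20, 5.70 and 9.53 CPM in MI and 2.93, 6.65 and 4.04 CPM in Sham. The MI+BPD call ended without Sham 1, Sham 3, MI+BPD 2 or MI+BPD 3 and with no filter, and the difference between MI+BPD and MI did not pass either (0.51 ± 0.33). The sodium-activated Kcnt2, outside the panels, rose by 2.18 ± 0.24 and 2.12 ± 0.24 in MI+BPD and MI, with 5.42 to 6.86 CPM in the Sham libraries. Kcnt1 fell by 2.01 ± 0.61 in MI, with a log2 fold change of -2.69 without MI 1 and the call ending without Sham 2 or MI 2 and with library totals.

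Among accessory subunits, Kcnip2 was the one that fell, and others rose or did not pass. Of 16 genes 10 were tested, with 4 rising, 1 falling and 5 not passing in MI+BPD. In MI 5 rose, 1 fell and 4 did not pass. Among all genes, 31.8% rose and 27.8% fell in MI+BPD, and 37% rose and 31.9% fell in MI. Kcne4, which damps several voltage-gated channels in expression systems, had 22.5, 28.6 and 36.2 CPM in MI+BPD, 38.0, 39.9 and 27.0 CPM in MI and 3.39, 4.20 and 3.51 CPM in Sham. Infarct and Sham libraries were far apart, and Kcne4 rose by 2.98 ± 0.23 in MI+BPD and 3.24 ± 0.23 in MI (adjusted p = 2.72e-05 and 1.32e-05). Counts of Kcne4 per count of Kcnq1 were 0.989, 1.65 and 1.74 in MI+BPD, 2.92, 3.33 and 1.25 in MI and 0.0833, 0.104 and 0.0749 in Sham. Kcnab2, a cytoplasmic beta subunit, rose by 1.51 ± 0.34 and 1.56 ± 0.34 in MI+BPD and MI. Kcnab1, its relative in the heart, rose in MI+BPD by 0.97 ± 0.28, a call that ended without MI+BPD 2, and did not pass in MI (0.69 ± 0.28, adjusted p = 0.0526, 0.00169 to 0.168 over the alternatives). Outside the panels, Kcnip3 rose in MI+BPD and MI by 1.10 ± 0.27 and 1.19 ± 0.27. Kcne3 did not pass in MI+BPD (0.48 ± 0.55) and rose in MI by 1.45 ± 0.51, a call that ended without Sham 1, Sham 2, MI 1 or MI 2. Kcne1l had 3 Sham counts and a ratio to Sham of 4.23 (1.26 to 22.2) in MI+BPD and 5.78 (1.82 to 29.4) in MI, with overlapping libraries in MI+BPD, where it did not pass (adjusted p = 0.122), and the MI call ended when any 1 of 5 libraries was left out and when MI and Sham were fitted without MI+BPD.

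The antisense transcript Kcnq1ot1, which lies within Kcnq1 and silences its imprinted neighbourhood, had 8.92, 8.42 and 7.52 CPM in MI+BPD, 11.8, 12.3 and 11.3 CPM in MI and 5.58, 7.70 and 6.71 CPM in Sham. It rose in MI by 0.82 ± 0.13 and did not pass in MI+BPD (0.31 ± 0.13). Kcnq1 itself fell, and the overlap with Kcnq1ot1 covers 2.96% of its exon length.

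Each channel gene can be set beside the cardiomyocyte marker RNA of its library. Of the 24 genes that fell in MI, 17 had a log2 fold change below the median of the 16 cardiomyocyte markers, -1.58, and so did 14 of the 20 that fell in MI+BPD (median -1.07). Some were below it by far less than their SE, such as Kcnj12 (-1.60 ± 0.28) and Kcnh2 (-1.62 ± 0.26) in MI. The markers themselves ran from -2.37 to -0.81 in MI and from -1.53 to -0.60 in MI+BPD. Only Kcnv2, Kcnj3, Kcnd2 and Kcnip2 lay below these ranges. As a further description, chosen after the data were seen, counts were expressed per 1000000 counts of the 16 markers in the same library. This sum is of marker RNA, in which abundant markers weigh most, and is not a measure of muscle content. On this scale 6 of the 24 genes were lower in every MI library than in any Sham library, namely Kcnv2, Kcnj3, Kcnd2, Kcnip2, Kcnj5 and Kcnn2. Another 6 were higher without overlap, among them Kcnj8, Kcng2, Kcnq1, Kcnj2 and Kcna6, and 12 overlapped. In MI+BPD against Sham 4 were lower, 5 higher and 15 overlapped. The 24 genes were picked as lower in these same libraries, and no such count was made over all genes. Whether these numbers are unusual thus cannot be told.

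Kcnv2 had 113, 25.4 and 49.5 in MI+BPD, 13.6, 27.8 and 32.2 in MI and 186, 271 and 173 in Sham counts per 1000000 marker counts. Kcnd2 had 375, 245 and 468 in MI+BPD, 219, 161 and 240.4 in MI and 481, 474 and 659 in Sham, and Kcnj3 had 1078, 399.5 and 659 in MI+BPD, 358, 333 and 462 in MI and 1195, 1283 and 1239 in Sham. In these 3 genes MI lay far below Sham on this scale as well, and Kcnj3 in MI+BPD 1 came close to Sham. Kcnk3 had 2342, 1991 and 2131 in MI+BPD, 2224, 2318 and 2113 in MI and 2209, 2234 and 1984 in Sham, so its libraries overlapped across all groups. Kcng2 had 801, 778 and 803 in MI+BPD, 827, 983 and 864 in MI and 644, 648 and 677 in Sham, with the infarct libraries above Sham. No test was made on this scale, since an exact permutation of 3 against 3 libraries cannot go below p = 0.1.

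**Figure D4:**
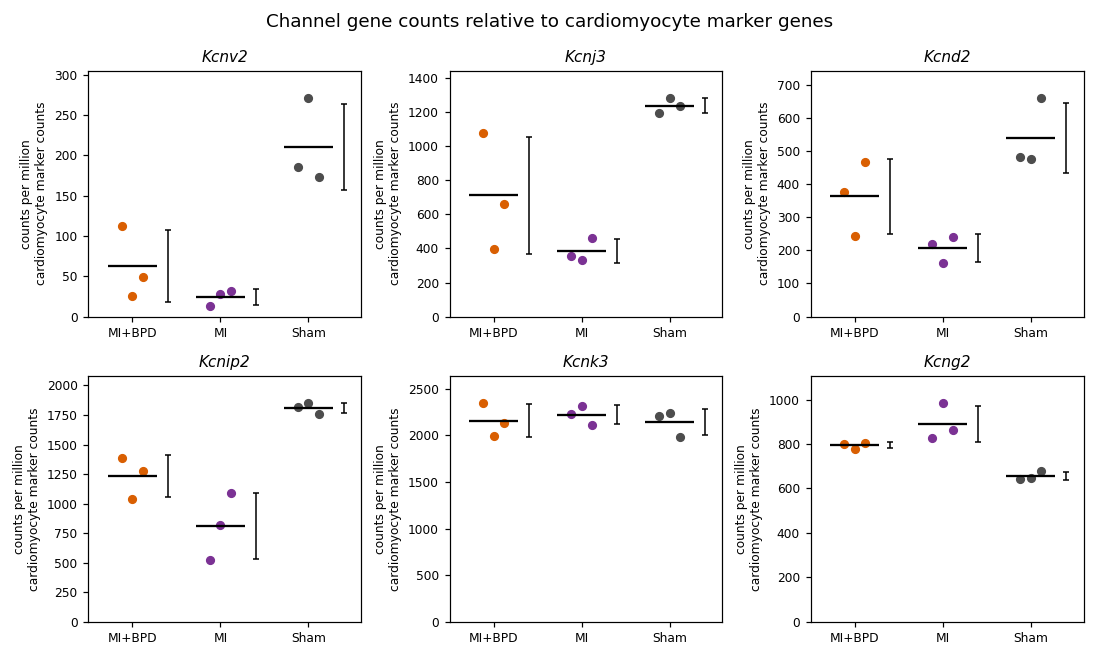
Counts of 6 channel genes per 1000000 counts of the 16 cardiomyocyte marker genes of the same library (vertical axes from 0), for 3 libraries each of MI+BPD, MI and Sham, with mean (line) and SD (bar). Kcnv2, Kcnj3, Kcnd2 and Kcnip2 lie lower in MI than in Sham, Kcnk3 overlaps in all groups and Kcng2 lies above Sham in both infarct groups.

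No channel gene passed between MI+BPD and MI. Of the 52 genes 0 were called, as were 0% of all genes tested, and the smallest adjusted p of a channel gene was 0.369 (edgeR, Benjamini-Hochberg). At an unadjusted p under 0.05 there were 18 genes, or 34.6%, of which 15 were higher and 3 lower in MI+BPD, against 13.5% of all genes. The median log2 fold change was 0.21, against 0.0028 for all genes, and 8 genes, or 15.4%, had libraries that did not overlap, against 13.9% of all genes. The cardiomyocyte markers had a median of 0.52 in the same comparison, and none of them passed. Their part in the channel values was not tested.

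The 3 higher genes of smallest p were Kcna2, Kcnd2 and Kcnn1. Kcna2, a voltage-gated channel of nerve and smooth muscle, had 8.15, 4.62 and 4.22 CPM in MI+BPD, 2.30, 1.71 and 2.99 CPM in MI and 7.96, 5.42 and 5.64 CPM in Sham. Every MI+BPD library was above every MI library, and MI+BPD overlapped Sham. The log2 fold change of Kcna2 was 1.28 ± 0.30 in MI+BPD against MI (unadjusted p = 0.00216, adjusted p = 0.369, 0.0368 to 0.987 over the alternatives). Against Sham it did not pass in MI+BPD (-0.17 ± 0.30, which turned to 0.33 with library totals, to 0.0263 without Sham 1 and to 0.00632 without MI+BPD 3) and fell by 1.44 ± 0.31 in MI. Kcnd2 was at 1.33 ± 0.36 (unadjusted p = 0.00469) and Kcnn1 at 0.67 ± 0.19 (unadjusted p = 0.00719). The 3 lower genes of smallest p were Kcnq1ot1 at -0.51 ± 0.13, Kcnq3 at -1.42 ± 0.40 and Kcne1 at -0.49 ± 0.17, each without overlap between MI+BPD and MI. Kcnq3 had 10, 13 and 15 counts in MI+BPD and 32, 70 and 29 in MI.

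This comparison turned on the tool and on 1 library. DESeq2 called 1 channel gene, Kcna2 (adjusted p = 0.0425), among 51 genes in all. Limma-voom with quality weights called 10 higher and 2 lower channel genes among 992 genes, of which 77.7% were higher. Without MI 3, the MI library with the most cardiomyocyte marker RNA, edgeR called 1353 of 15453 genes, of which 83.2% were higher. The 11 channel genes among them, all higher, were Kcnn1, Kcnq1, Kcnip2, Kcnj5, Kcna2, Kcnd3, Kcnj12, Kcna5, Kcnn2, Kcnd2 and Kcnj11. Leaving out each of the other 8 libraries gave 0. For Kcnip2 the log2 fold change was 1.09 ± 0.40 with all libraries and 1.73 without MI 3, and only the second passed. For Kcnj3 it was 1.48 ± 0.47 and 1.97, and Kcnj3 passed in neither fit. Among genes that rose against Sham, the log2 fold change in MI+BPD against MI was -1.42 ± 0.40 for Kcnq3, -0.20 ± 0.27 for Kcnj15, -0.27 ± 0.19 for Kcne4 and 0.14 ± 0.30 for Kcnma1.

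**Figure D5:**
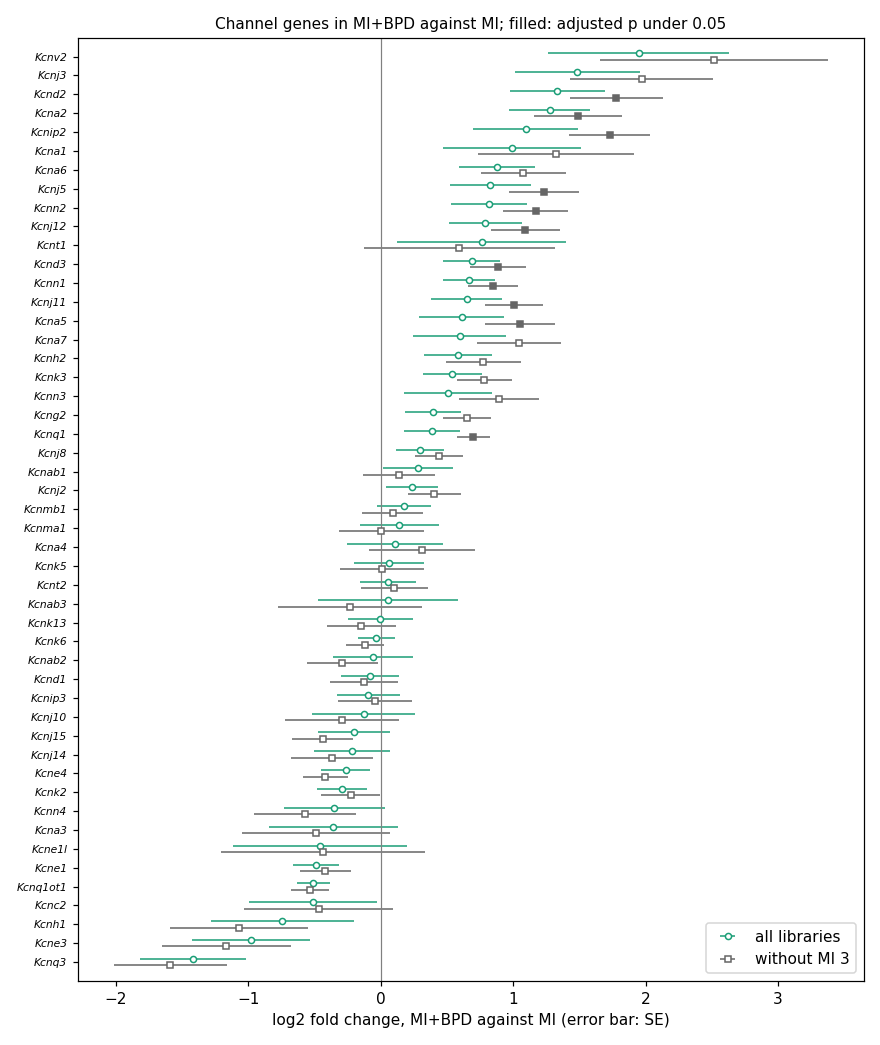
Log2 fold change of MI+BPD against MI (horizontal axis, error bar SE) for 49 tested genes, with all 9 libraries (green circles) and without MI 3 (grey squares); filled points passed at an adjusted p under 0.05. No gene passed with all libraries, and 11 passed without MI 3, all to the right of 0, where 83.2% of all genes called were higher.

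Partners of the channels mostly fell. Of 18 partner and regulator genes 12 were tested, with none rising, 8 falling and 4 not passing in MI+BPD against Sham, and 1 rising, 9 falling and 2 not passing in MI. Of all genes tested, 31.8% rose and 27.8% fell in MI+BPD, and 37% rose and 31.9% fell in MI. Abcc9, the sulphonylurea receptor that joins Kcnj11 or Kcnj8, averaged 299 ± 102 CPM in MI+BPD, 188 ± 66.1 CPM in MI and 613 ± 66.6 CPM in Sham (SD, n = 3) and fell by 1.04 ± 0.28 in MI+BPD and 1.71 ± 0.29 in MI. Abcc8, the other receptor, fell by 1.10 ± 0.20 and 1.66 ± 0.20. Irx4, a ventricular transcription factor, fell by 0.93 ± 0.28 and 1.33 ± 0.28, and Cav3, the muscle caveolin, by 0.99 ± 0.20 and 1.33 ± 0.20 in MI+BPD and MI. Irx5, a repressor of Kcnd2 in mouse heart, did not pass (0.04 ± 0.38 and -0.04 ± 0.37). Dpp6, a partner of Kcnd subunits in neurons, had at most 0.138 CPM in any library, and Dpp10 and Lrrc26 had no count.

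Potassium channels that carry other symbols, 4 in number, gave none rising, 3 falling and 1 not passing in MI+BPD against Sham and 1 rising and 3 falling in MI. Tmem38a, the cation channel of the muscle sarcoplasmic reticulum, had 232, 148 and 158 CPM in MI+BPD, 82.3, 95.4 and 159 CPM in MI and 393, 409 and 423 CPM in Sham and fell by 1.19 ± 0.25 and 1.86 ± 0.26. The sodium-potassium pump, which returns potassium to the cell, was split, with 4 of its 9 genes rising, 4 falling and 1 not passing in both comparisons. Over all genes tested 31.8% rose and 27.8% fell in MI+BPD, and 37% rose and 31.9% fell in MI. Lists of 4 and 9 genes are too short to be set apart from these shares. The pump regulator Fxyd1, phospholemman, fell by 0.89 ± 0.14 in MI+BPD and 1.18 ± 0.14 in MI. The regulators Fxyd6 and Fxyd5 rose, by 3.12 ± 0.33 and 2.07 ± 0.12 in MI+BPD and by 3.39 ± 0.34 and 2.19 ± 0.12 in MI. Fxyd6 had 82.7, 193 and 207 CPM in MI+BPD, 196, 223 and 165 CPM in MI and 23.1, 16.0 and 16.7 CPM in Sham, and its infarct libraries did not overlap Sham. Over these 3 lists together, 4 genes rose and 15 fell in MI+BPD and 6 rose and 16 fell in MI, where 3 rose without Sham 2. With library totals 8 rose and 7 fell in MI+BPD, and 9 rose and 8 fell in MI. None of these genes passed between MI+BPD and MI in edgeR. Without MI 3, 8 passed, all higher, where 83.2% of all genes called were higher.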

How the data were processed

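Bulk RNA of 9 left ventricle libraries was used, and groups follow the library names. The authors deposited a table of unnormalized counts, 1 whole number for each symbol and library. Reads were aligned with STAR, and the builds mm10, GRCm39 and mm39 are named, per the submitters' processing notes, without saying which was used. Counting program, annotation and strand handling were not given in the sources used here, so coordinates are printed only for RefSeq promoter windows of GRCm38.p6. Overlaps with opposite-strand genes are named above for some genes only. Among others, they cover 12.2% of the exon length of Kcnk2, 9.1% of Kcng2, 8.13% of Kcnn2, 5.985% of Kcnma1 and 5.76% of Kcnk3. Among the markers they cover 64.7% of Pln and 67.9% of Tagln.

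Counts were fitted in R 4.3.3 with edgeR 4.0.16: TMM factors, filterByExpr (at least 10 counts, and 15 in total), and 1 quasi-likelihood model with robust dispersion over the 3 groups, which leaves 6 residual degrees of freedom for the 9 libraries. Tests were 2-sided, and p was adjusted by Benjamini-Hochberg over the 15138 genes tested, which hold 99.9% of counts. The biological coefficient of variation was 0.167. SE follows from the F statistic. CPM is counts per 1000000 counts of TMM-scaled library size, and exon length is the exon union of GENCODE M21, which holds all 98 genes and 96.4% of all symbols. A read without a molecular identifier is not an independent molecule, so floors and intervals cover counting error only. The fit was also run on simulated counts in which few genes changed, equally in both directions. That setting differs from these data, where most genes were called against Sham, so it does not test the scaling.

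Members, gene lists and panels were chosen with earlier results of these data known. Named genes are the panels, the 6 higher and 6 lower called genes of greatest change in MI against Sham with a mean of 1 CPM or more in the higher group, and the 3 higher and 3 lower of smallest p in MI+BPD against MI. Other genes named were chosen after their values were seen, as were the promoter genes and motifs and the scale of counts per marker count. Families follow the symbol. A few genes are not reported here singly or drawn, and all counts include them. Kcne1l, whose symbol continues after its number, was kept with the accessory subunits because GENCODE lists it as protein-coding.

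Alternatives were DESeq2 1.42.0 and limma-voom (limma 3.58.1), other scaling and filters, mitochondrially encoded genes left out, fewer libraries in the fit, a replicate block, an adjusted p under 0.01, and each library left out in turn.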

Additional observations from a re-analysis of the deposited data

How the results depend on the processing

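Against Sham, the counts of channel genes called higher or lower stayed within 1.5 times the values reported in every alternative. Leaving out 1 library gave 11 to 16 higher and 17 to 22 lower in MI+BPD, and 15 to 19 higher and 22 to 24 lower in MI. Between MI+BPD and MI the count of higher channel genes was 1 in DESeq2 and 10 in limma-voom, which also called 2 lower, and 0 to 11 when 1 library was left out. The partner, other channel and pump genes called higher there were 5 in limma-voom and 0 to 8 with 1 library left out. Of those lists, in MI against Sham 8 fell with library totals, 3 rose at an adjusted p under 0.01 and 3 to 6 rose with 1 library left out, and in MI+BPD against Sham 8 rose and 7 fell with library totals. The cause of these moves was not tested.

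With library totals all genes called were higher in 86.9% of cases in MI+BPD against Sham and 85.6% in MI against Sham, where TMM gave 53.4% and 53.6%. Kcna4 then turned to 0.0734 in MI+BPD and 0.17 in MI on the log2 scale, and in MI+BPD Kcne1 turned to 0.26, Kcnk2 to 0.35 and Kcna2 to 0.33. With 1 library left out Kcna2 in MI+BPD against Sham ran from -0.55 to 0.0263, above 0 without Sham 1 (0.0263) and without MI+BPD 3 (0.00632).

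Deviations from the group mean were correlated between libraries with the same replicate number. The correlations were -0.0940 to -0.0596 in MI+BPD and Sham, -0.158 to 0.194 in MI+BPD and MI and -0.0546 to 0.0028 in MI and Sham. Between MI+BPD and MI libraries of different number they ran from -0.277 to 0.2075. With 3 libraries a group, these values cannot decide whether the numbers mark pairs. With the replicate number as a block, 16 channel genes rose and 19 fell in MI+BPD against Sham, 17 rose and 24 fell in MI against Sham, and 0 were called between MI+BPD and MI. The calls of Kcnj12 in MI+BPD and of Kcne3 and Kcne1l in MI, both against Sham, did not pass in it, and Kcnab1 passed in MI. Depth limits genes under about 1 CPM, where a Sham library gives few counts.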
